A study of Mus musculus with 40 samples.

Results

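The 10 genes described here handle cholesterol and fatty acids in the brain. They were the rows of the cortical count table named *Apoe*, *Abca1*, *Abcg1*, *Nr1h2*, *Nr1h3*, *Lpl*, *Fabp5*, *Plin2*, *Lrp1* and *Soat1*, so 10 of the 43346 genes listed, and all 10 passed the filter on low counts that left 21253 genes. Poly-A RNA of pulverized cortex was read from 40 mice that formed 4 groups, each of 5 females and 5 males. Mice of the amyloid cohort were 8.5 months old and had the 5xFAD transgenes, driven in neurons by the *Thy1* promoter. The non-amyloid cohort carried no 5xFAD transgenes and was 6 months old, so transgenes and age cannot be told apart between the cohorts. Each cohort held WT mice and mice homozygous for the *Trem2* H157Y knock-in (Hom), a missense change in a microglial lipid-sensing receptor that was introduced with CRISPR/Cas9 and bred from 1 founder unless the study states otherwise. All cells of the Hom mice carried the change, and the cortex was sequenced whole.

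Astrocytes and microglia package cholesterol and phospholipid onto apolipoprotein E, the main lipoprotein of the brain, and the transporters ABCA1 and ABCG1 load these particles. The liver X receptors, encoded by *Nr1h2* and *Nr1h3*, are nuclear receptors that sense oxidized cholesterol and switch on *Apoe*, *Abca1* and *Abcg1*. LRP1 takes up lipoproteins at the surface of neurons and glia, LPL releases fatty acids from them, FABP5 carries fatty acids inside the cell, SOAT1 esterifies cholesterol for storage, and perilipin 2 (*Plin2*) coats the lipid droplets in which the esters are kept. Microglia around plaques are known to raise *Apoe* and *Lpl*, and TREM2 is needed for that response.

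Total counts per library ranged from 41646271 to 105903846. One amyloid Hom female, replicate 19, had the lowest total, and 0.300% of its counts lay on 139 genes overlapped by a stronger gene of the opposite strand, against 0.0141% to 0.0186% in the other 39 libraries. It was kept, and results that change without it are given. *Trem2* was at 62.2 ± 24.4 CPM (counts scaled to 1000000 per library, mean ± SD, n = 10) in amyloid WT, 33.9 ± 10.3 in amyloid Hom, 10.7 ± 2.13 in non-amyloid WT and 10.4 ± 1.59 in non-amyloid Hom mice. *Thy1*, part of whose sequence the transgenes carry, lay between 1206 and 2510 CPM in the 20 amyloid libraries and between 498 and 763 CPM in the 20 non-amyloid libraries, so every library matched its cohort. Defining markers of neurons, astrocytes, oligodendrocytes and microglia were present in all groups.

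Levels between genes were compared as RPKM, which is CPM per kilobase of the gene length in the table. Over the 40 libraries *Apoe* stood at 318.5 ± 89.8 RPKM (mean ± SD), above the other 9 genes in every library. *Fabp5* (22.97 ± 2.70 RPKM) and *Lrp1* (20.1 ± 4.26 RPKM) followed, and *Fabp5* was the higher in 26 of 40 libraries, so their order was within the spread. *Abcg1* (13.1 ± 1.59 RPKM) was above *Lpl* (8.35 ± 2.08 RPKM) in 38 libraries and *Lpl* above *Abca1* (6.41 ± 1.56 RPKM) in 36. The order of *Abca1*, *Nr1h2* (5.38 ± 1.35 RPKM) and *Soat1* (4.26 ± 0.803 RPKM) changed among libraries, with *Abca1* above *Nr1h2* in 27 and *Nr1h2* above *Soat1* in 30. *Plin2* (1.95 ± 0.507 RPKM) and *Nr1h3* (0.742 ± 0.176 RPKM) were the lowest, in that order in 40 of 40 libraries. The receptor gene *Nr1h3* was read by 49 to 273 counts per library, against 25914 to 97266 counts for *Apoe*, so its counting error was the larger.

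The 10 genes differ in the GC content of their transcripts. In GENCODE vM21 the longest transcript of *Nr1h2* was 60.6% G and C, that of *Apoe* 59.5%, of *Lrp1* 57.9%, of *Nr1h3* 56.8%, of *Abcg1* 52.7%, of *Plin2* 52.1%, of *Fabp5* 49.0%, of *Abca1* 47.5%, of *Soat1* 44.1% and of *Lpl* 43.5%. The median of the 15063 expressed genes with a transcript was 49.6%. The stretches of 60 coding bases below, within 1 exon each and chosen for a GC content nearest to that of the whole transcript, show the contrast, with G and C in capitals. They lie on GRCm38 (mm10) and are read 5′ to 3′ on the coding strand.

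*Nr1h2*, exon 4, chr7:44552556-44552615, minus strand: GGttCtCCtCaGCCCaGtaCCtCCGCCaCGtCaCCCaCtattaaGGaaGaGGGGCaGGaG

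*Apoe*, exon 3, chr7:19697588-19697647, minus strand: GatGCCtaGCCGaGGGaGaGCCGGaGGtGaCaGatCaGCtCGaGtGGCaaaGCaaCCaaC

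*Lrp1*, exon 2, chr10:127612675-127612734, minus strand: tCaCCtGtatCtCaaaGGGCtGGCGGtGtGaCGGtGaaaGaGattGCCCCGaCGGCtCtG

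*Abca1*, exon 2, chr4:53143936-53143995, minus strand: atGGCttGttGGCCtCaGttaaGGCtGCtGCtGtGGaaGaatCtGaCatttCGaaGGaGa

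*Soat1*, exon 2, chr1:156466702-156466761, minus strand: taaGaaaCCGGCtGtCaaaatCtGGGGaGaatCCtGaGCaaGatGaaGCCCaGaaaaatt

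*Lpl*, exon 5, chr8:68895728-68895787, plus strand: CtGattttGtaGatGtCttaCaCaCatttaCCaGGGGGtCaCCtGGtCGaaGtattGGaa

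**Figure D1:**
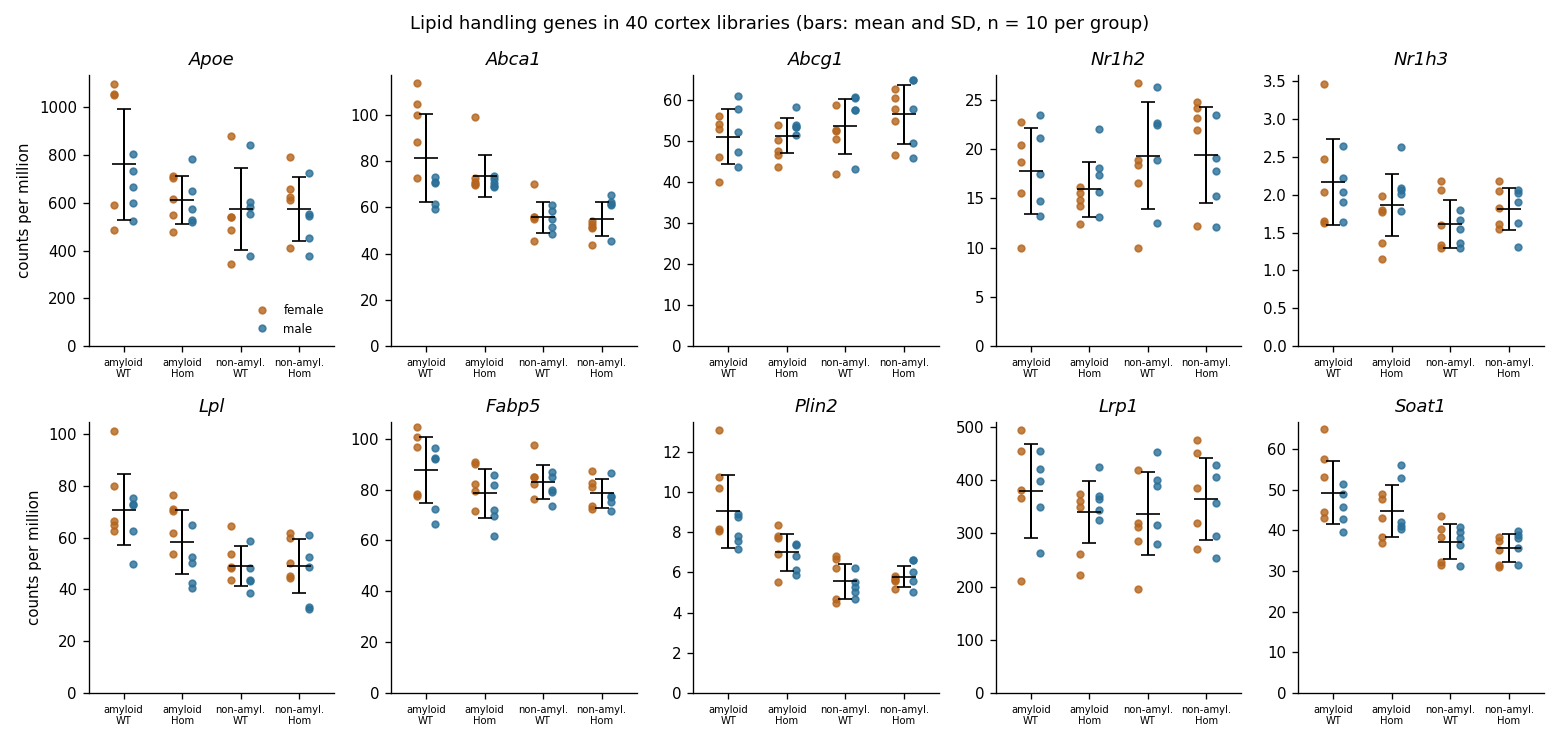
CPM (vertical axis, linear, from 0) of the 10 genes in each of 40 cortex libraries, by group on the horizontal axis, with a point per mouse coloured by sex and the mean and SD of each group (n = 10). *Abca1*, *Plin2* and *Soat1* sat higher in both amyloid groups and *Lpl* in amyloid WT mice, while *Apoe*, *Nr1h2* and *Lrp1* spread widely inside every group.

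Of the 10 genes 4 were higher in amyloid WT than in non-amyloid WT mice, and they were the droplet coat gene *Plin2*, the cholesterol exporter *Abca1*, the lipase *Lpl* and the esterifying enzyme *Soat1*. In this comparison 1553 of 21253 genes were called (7.31% of genes), which here means a fold change beyond 0.25 log2 units in either direction with a Benjamini-Hochberg adjusted p below 0.05 in edgeR's quasi-likelihood test, 1320 of them higher in the amyloid cohort (6.21%). The median log2 fold change of the 10 genes was 0.40, beside 0.00237 over all genes tested. In bulk tissue, more cells of a type and more RNA per cell cannot be told apart. The 11 markers of plaque-associated microglia, a list that holds *Trem2* and none of the 10 genes, were all called higher, and their summed level ranged from 284.6 to 988 CPM in amyloid WT against 88.9 to 116 CPM in non-amyloid WT mice. Their part in the differences of the lipid genes was not tested.

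*Plin2* ranged from 7.15 to 13.1 CPM (median 8.47) in amyloid WT and from 4.48 to 6.80 CPM (median 5.39) in non-amyloid WT mice. All 10 amyloid WT libraries lay above every non-amyloid WT library. *Plin2* differed by 0.70 on the log2 scale (SE 0.11, edgeR adjusted p = 7.52e-05).

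*Abca1* ranged from 59.1 to 113.8 CPM (median 73.0) in amyloid WT and from 45.4 to 70.3 CPM (median 55.3) in non-amyloid WT mice. Of the amyloid WT libraries 8 exceeded the highest non-amyloid WT library, and the highest 4 amyloid WT values, from 88.2 CPM upward, came from females. On the log2 scale *Abca1* was 0.55 higher (SE 0.11, edgeR adjusted p = 0.00139).

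*Lpl* ranged from 49.6 to 101.4 CPM (median 69.6) in amyloid WT and from 38.7 to 64.6 CPM (median 48.1) in non-amyloid WT mice. The groups overlapped, with 7 amyloid WT libraries above the highest non-amyloid WT one. *Lpl* was 0.53 higher on the log2 scale (SE 0.10, edgeR adjusted p = 0.00119).

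*Soat1* ranged from 39.6 to 65.0 CPM (median 47.4) in amyloid WT and from 31.1 to 43.6 CPM (median 38.2) in non-amyloid WT mice. Every amyloid WT library was above the non-amyloid WT median, and 7 exceeded the highest. Its difference was 0.40 on the log2 scale (SE 0.09, edgeR adjusted p = 0.00244).

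The receptor gene *Nr1h3* and *Apoe* itself had log2 fold changes of like size but did not pass. *Nr1h3* ranged from 1.63 to 3.47 CPM (median 2.04) in amyloid WT and from 1.30 to 2.18 CPM (median 1.58) in non-amyloid WT mice, with a log2 fold change of 0.43 (SE 0.14, adjusted p = 0.0685). DESeq2 (adjusted p = 0.0470), 1 fit of all 40 libraries (0.0373) and 4 of the 20 fits that left out 1 library called it. *Apoe* ranged from 488 to 1098 CPM (median 698.5) in amyloid WT and from 345 to 878 CPM (median 547) in non-amyloid WT mice. Of the amyloid WT females 3, at 1051, 1056 and 1098 CPM, stood above every other library of the study, and the lowest amyloid WT value, 488 CPM, was also a female's. *Apoe* had a log2 fold change of 0.40 (SE 0.17, adjusted p = 0.187), so it was not called in this fit. Before adjustment, 6 of the 10 genes and 4259 of the 21253 genes tested had an edgeR p below 0.05 between the WT groups.

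The other 4 genes differed less between the WT groups. *Lrp1*, the uptake receptor, had a log2 fold change of 0.17 (SE 0.14), *Fabp5* of 0.08 (SE 0.08), *Abcg1* of -0.07 (SE 0.08) and *Nr1h2* of -0.12 (SE 0.17), with adjusted p values of 0.576, 0.628, 0.723 and 0.758 in edgeR. Of the receptor genes, *Nr1h3* lay above and *Nr1h2* below 0, and neither passed.

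Among Hom mice, *Abca1*, *Soat1* and *Plin2* were higher in the amyloid cohort and *Lpl* did not pass. Here 1251 genes were called (5.89%), of which 1041 were higher in the amyloid cohort (4.9%). The median log2 fold change of the 10 genes was 0.07, beside 0.0274 over all genes. Summed plaque-associated markers ranged from 177 to 419.5 CPM in amyloid Hom against 81.8 to 99.98 CPM in non-amyloid Hom mice, with all 11 called higher.

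*Abca1* ranged from 68.7 to 99.3 CPM (median 70.8) in amyloid Hom and from 43.9 to 65.5 CPM (median 53.4) in non-amyloid Hom mice, with no overlap. The other 9 amyloid Hom values lay between 68.7 and 73.4 CPM, below the 99.3 CPM of a female, replicate 3. *Abca1* had a log2 fold change of 0.43 (SE 0.08, edgeR adjusted p = 0.000905), and of 0.37 without replicate 3.

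*Soat1* ranged from 36.9 to 56.2 CPM (median 42.5) in amyloid Hom and from 30.9 to 39.8 CPM (median 36.5) in non-amyloid Hom mice. *Soat1* was 0.33 higher on the log2 scale (SE 0.07, edgeR adjusted p = 0.00813). It was called in each of the 20 fits that left out 1 library.

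*Plin2* ranged from 5.54 to 8.38 CPM (median 7.14) in amyloid Hom and from 5.02 to 6.63 CPM (median 5.70) in non-amyloid Hom mice. Of the amyloid Hom libraries 7 exceeded the highest non-amyloid Hom one. *Plin2* had a log2 fold change of 0.28 (SE 0.08, edgeR adjusted p = 0.0368), and 12 of the 20 fits that left out 1 library lost the call, with adjusted p between 0.0123 and 0.0681 over the 20.

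The libraries whose removal lost the call of *Plin2* were amyloid Hom replicates 3, 16, 30, 33, 34 and 39 and non-amyloid Hom replicates 6, 11, 14, 20, 23 and 37. *Lpl* in Hom mice had a log2 fold change of 0.26 (SE 0.13, adjusted p = 0.232) and *Apoe* of 0.09 (SE 0.12, adjusted p = 0.686). *Nr1h2* stood at -0.28 (SE 0.13, adjusted p = 0.199) and *Abcg1* at -0.14 (SE 0.07, adjusted p = 0.214). The remaining values were -0.10 for *Lrp1*, 0.04 for *Nr1h3* and -0.00 for *Fabp5*.

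**Figure D2:**
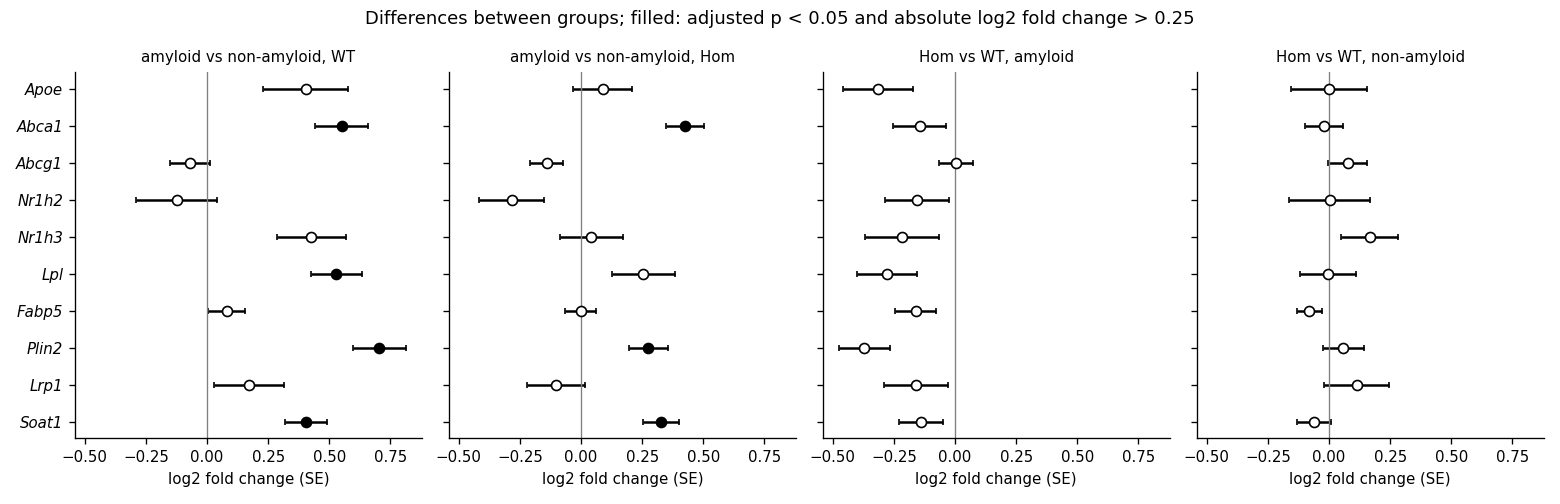
Log2 fold changes with their SE (horizontal axis) of the 10 genes in 4 comparisons of 10 against 10 libraries, filled where called. The filled points are *Plin2*, *Abca1*, *Lpl* and *Soat1* between the WT groups and *Abca1*, *Soat1* and *Plin2* between the Hom groups, and no point is filled for Hom against WT.

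The question of the knock-in was whether *Trem2* H157Y changes these genes within a cohort. In the amyloid cohort none of the 10 genes was called between Hom and WT mice, where 16 of 21253 genes were (0.0753%), although 9 of 10 had a negative log2 fold change, beside 49.6% of all genes tested. An unadjusted p below 0.05 was reached by 2056 genes, among them *Plin2*, *Lpl* and *Apoe*. The median of the 10 genes was -0.16, beside 0.00142 over all genes. Summed plaque-associated markers had medians of 562 CPM in amyloid WT and 287.5 CPM in amyloid Hom mice, with 11 of 11 log2 fold changes below 0 and 1 called. Their part in the values of the lipid genes was not tested.

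*Plin2* had the lowest p of the 10. Its medians were 8.47 CPM in amyloid WT and 7.14 CPM in amyloid Hom mice, and 5 of the 10 Hom libraries lay below the lowest WT library. The difference was -0.37 on the log2 scale (SE 0.10, p = 0.00179, adjusted p = 0.115) in edgeR. DESeq2 called it (adjusted p = 0.0424) among 300 genes (1.41%), as did 1 fit of all 40 libraries (adjusted p = 0.0180) among 612 genes (2.88%), while the fits that left out 1 library gave adjusted p between 0.0791 and 0.236.

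*Apoe* ranged from 475.5 to 781 CPM (median 596) in amyloid Hom mice, so its spread was narrower than in amyloid WT mice and no Hom library reached the 3 highest WT ones. Its log2 fold change was -0.31 (SE 0.14, adjusted p = 0.471), and between -0.37 and -0.24 when 1 library was left out. *Lpl* ranged from 40.7 to 76.6 CPM (median 57.7) in amyloid Hom mice, with a log2 fold change of -0.28 (SE 0.12, adjusted p = 0.442).

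*Nr1h3* stood at -0.22 (SE 0.15), *Fabp5* at -0.16 (SE 0.08), *Lrp1* at -0.16 (SE 0.13), *Nr1h2* at -0.16 (SE 0.13), *Abca1* at -0.14 (SE 0.11), *Soat1* at -0.14 (SE 0.09) and *Abcg1* at 0.01 (SE 0.07). Their adjusted p values lay between 0.557 for *Fabp5* and 0.985 for *Abcg1*.

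Without amyloid, the genotypes gave log2 fold changes from -0.08 (*Fabp5*) to 0.17 (*Nr1h3*), and no gene of the 10 was called, where 7 genes were in all (0.0329%) and 955 had an unadjusted p under 0.05. *Apoe* was at 575 ± 172 CPM in non-amyloid WT and 575 ± 133.9 CPM in non-amyloid Hom mice (SD, n = 10 each), a log2 fold change of 0.00 with an SE of 0.15. None of the 10 had an unadjusted p under 0.05. The test of the difference between the cohorts, the interaction of genotype and cohort, called 0 genes in all (0%, with 2189 at an unadjusted p under 0.05 and 27 called by DESeq2). Its lowest p among the 10 was that of *Plin2*, at -0.43 (SE 0.13, p = 0.00270, adjusted p = 0.206), so a larger reduction of *Plin2* with amyloid was not shown.

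The highest values of *Abca1* and *Apoe* came from amyloid WT females. Between females and males of the amyloid cohort, 51 genes were called (0.24%) and none of the 10. *Abca1* was at 95.9 ± 15.9 CPM in amyloid WT females and 67.0 ± 6.30 CPM in amyloid WT males, and at 76.5 ± 12.8 CPM in amyloid Hom females and 70.9 ± 1.92 CPM in amyloid Hom males (SD, n = 5 each). Its log2 fold change, female over male, was 0.31 (SE 0.09, p = 0.00179, adjusted p = 0.146 in edgeR). Markers of microglia also lay higher in females of this cohort, with 12 of 12 log2 fold changes above 0 (median 0.42, 1 called). Those of plaque-associated microglia did too, with 11 of 11 (median 0.61, 0 called). The 8 astrocyte markers had a median of 0.07, with 2 of 8 below 0 and 1 called, *Gfap*, the highest at 0.83 (adjusted p = 0.0377). The part of these markers in the sex difference of *Abca1* was not tested. The interaction of genotype and sex for *Abca1* was -0.41 (SE 0.16, p = 0.0161, adjusted p = 0.817), in a test that called 0 genes (0%, with 1124 at an unadjusted p under 0.05 and 0 called by DESeq2). Between the sexes without amyloid 25 genes were called (0.118%), again none of the 10, and *Abca1* stood at -0.09 (SE 0.08).

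The spread inside groups separated the genes further. The deviations of some genes went with how expression in a library followed the GC content of transcripts, and those of others with microglial markers. For each library the slope of log2 expression on the GC content of transcripts was computed over 15063 genes, per 10 percentage points of GC, relative to the mean of all libraries. This GC slope ranged from -0.417 to 0.302, in each group on both sides of 0, with means of 0.014 in amyloid WT, -0.076 in amyloid Hom, -0.005 in non-amyloid WT and 0.067 in non-amyloid Hom mice. The largest gap between group means was -0.143, between the Hom groups (permutation test, 100000 resamples, two-sided, p = 0.0617, adjusted over 4 comparisons 0.247). The SD of the slope was 0.144 in amyloid Hom and 0.174 in non-amyloid Hom mice, and equal group means were not shown. The slope is computed from the expression of genes by their GC content, so GC-rich genes are set to go with it, and its correlations with single genes are given as a description without a test. The source of the slope was not tested.

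After the group means were removed, *Nr1h2*, *Lrp1*, *Apoe* and *Abcg1* rose and fell with the GC slope. Over 40 libraries r was 0.94 for *Nr1h2* (Spearman's rho 0.93), 0.925 for *Lrp1* (rho 0.88), 0.87 for *Apoe* (rho 0.83) and 0.84 for *Abcg1* (rho 0.77). Without the 2 libraries farthest from the median slope r was 0.92, 0.89, 0.85 and 0.79. Of the 15198 genes with a mean of at least 1 CPM, 1.70% had an r with the slope as high as that of *Nr1h2*, 3.38% as high as that of *Lrp1*, 8.33% as high as that of *Apoe* and 10.4% as high as that of *Abcg1*.

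*Nr1h3* (r = 0.67, rho 0.74) and *Plin2* (r = 0.42, rho 0.35) had lower values, which 20.01% and 29.98% of genes reached. *Soat1* was below 0 (r = -0.50, rho -0.47, r = -0.365 without the 2 farthest libraries), with 26.8% of genes as low. *Abca1* had r = -0.17 (rho -0.26), *Lpl* -0.12 (rho -0.13) and *Fabp5* 0.02 (rho -0.03). For *Apoe* r was 0.80 in amyloid and 0.93 in non-amyloid libraries, and for *Nr1h2* it was 0.93 and 0.96. *Abca1* had r = 0.17 in the amyloid and -0.60 in the non-amyloid libraries, and this difference was not tested.

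The 6 pairs among *Apoe*, *Abcg1*, *Nr1h2* and *Lrp1* had r from 0.75 to 0.89 and rho from 0.71 to 0.86, out of 45 pairs computed, and at least 0.73 without the 2 farthest libraries. The 3 genes of 15198 whose deviations were most like those of *Apoe* were the ferritin gene *Ftl1* (r = 0.945) and the ribosomal protein genes *Rpl18* (r = 0.945) and *Rps9* (r = 0.944). Those most like *Nr1h2* were *Fkbp8*, *Rnf126* and *Asb6* (r = 0.97 each), those most like *Lrp1* were *Gcn1l1*, *Pcnxl3* and *Gm20662* (r = 0.97 to 0.98), and those most like *Abcg1* were *Bcl9l*, *Rnf166* and *Ormdl3* (r = 0.92 to 0.94). For *Nr1h3* they were *Syvn1*, *Gm26572* and *Mmp17* (r = 0.79 to 0.80).

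The other genes had other neighbours. *Lpl* was most like *Samsn1*, *Pik3cg* and *Cd180* (r = 0.737, 0.726 and 0.715), genes known from immune cells. *Plin2* was most like *Abhd4*, *Tcn2* and *Tmem176a* (r = 0.78 to 0.80), *Abca1* most like *Plce1*, *Cnn3* and *Cttnbp2nl* (r = 0.75 to 0.84) and *Soat1* most like *Dstyk*, *Ppp2r5c* and *Snap29* (r = 0.78 to 0.82). *Fabp5* was most like *Gm6166* (r = 0.77), a processed pseudogene that shares 175 bases with it at 99.4% identity and may hold some of its reads, followed by *Fdps* and *Akr1b10* (r = 0.71 and 0.69).

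Among the 20 amyloid libraries, *Lpl*, *Abca1*, *Plin2* and *Fabp5* followed the summed level of the 11 plaque-associated markers, again as deviations from group means. r was 0.81 for *Lpl* (rho 0.71, adjusted permutation p = 0.0004), 0.72 for *Abca1* (rho 0.65, adjusted permutation p = 0.00195), 0.695 for *Plin2* (rho 0.675, adjusted permutation p = 0.00217) and 0.62 for *Fabp5* (rho 0.60, adjusted permutation p = 0.00845), over 10 genes tested. Without the 2 farthest libraries r was 0.70, 0.60, 0.65 and 0.50, and within sex it was 0.79, 0.55, 0.58 and 0.55. An r as high was found for 1.14% of the 15198 genes in the case of *Lpl*, 2.05% for *Abca1*, 2.28% for *Plin2* and 3.07% for *Fabp5*. Among amyloid WT and amyloid Hom libraries taken apart, r was 0.83 and 0.82 for *Lpl*, 0.65 and 0.58 for *Fabp5*, 0.79 and 0.52 for *Plin2*, and 0.85 and 0.42 for *Abca1*, and the differences between genotypes were not tested. Amyloid Hom replicate 3 deviated by 0.44 in *Abca1* and 0.52 in the markers. In *Abca1* all other amyloid Hom libraries lay between -0.0918 and 0.0035. The 2 farthest libraries were chosen by marker level, so replicate 3 stayed in, and r without it was not computed. With the 12 markers of microglia in general, r was 0.79 for *Lpl*, 0.81 for *Abca1*, 0.73 for *Plin2* and 0.59 for *Fabp5*. The link of these genes was thus not particular to the plaque-associated list.

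*Apoe* had r = 0.41 with these markers (rho 0.37, adjusted permutation p = 0.151), and the values were 0.57 in amyloid WT and 0.04 in amyloid Hom libraries. With the 12 markers of microglia in general its r was 0.52 (adjusted permutation p = 0.0388) and its rho 0.44 (permutation p = 0.0528), with r = 0.39 without the 2 farthest libraries. That r was 0.715 in amyloid WT and 0.06 in amyloid Hom libraries, a difference that was not tested. *Nr1h3* (r = 0.02), *Nr1h2* (-0.05), *Lrp1* (-0.15), *Abcg1* (-0.26) and *Soat1* (0.21) had adjusted permutation p values of 0.440 or more. The GC slope and the summed plaque-associated markers had r = -0.04 with each other.

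**Figure D3:**
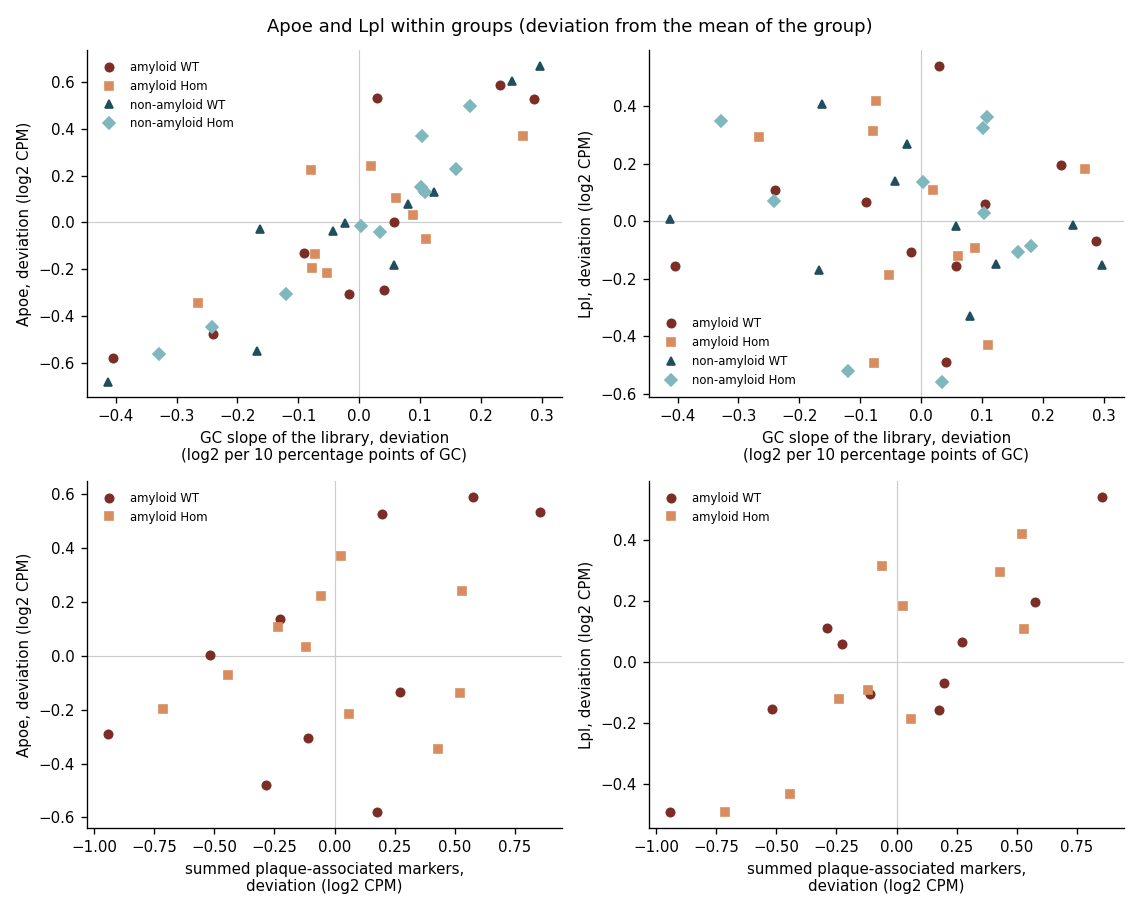
Deviations of *Apoe* (left) and *Lpl* (right) from their group means, in log2 CPM, against the deviation of the GC slope in 40 libraries (top) and of the summed plaque-associated markers in the 20 amyloid libraries (bottom), with a point per library and a symbol per group. *Apoe* lay along the GC slope (r = 0.87) and *Lpl* along the markers (r = 0.81).

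**Figure D4:**
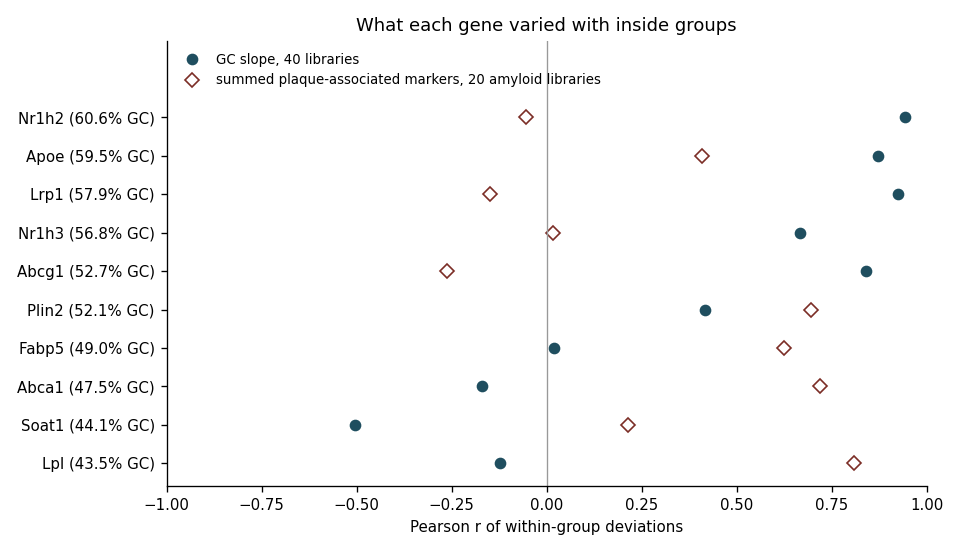
Pearson's r of the within-group deviations of each gene with the GC slope (filled circles, 40 libraries) and with the summed plaque-associated markers (open diamonds, 20 amyloid libraries), with the genes ordered by the GC content of their longest transcript. Filled circles run from -0.50 for *Soat1* to 0.94 for *Nr1h2*, and the open diamonds of *Lpl*, *Abca1*, *Plin2* and *Fabp5* lie at 0.62 or above.

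With the GC slope as a covariate, an alternative chosen after the values by library had been seen, *Apoe* was called higher in the amyloid cohort in both genotypes. The slope was computed from the expression of these same libraries, with *Apoe* among its genes. The SEs and adjusted p values with the covariate thus describe the fit and are not an independent test of *Apoe*. With the covariate 2020 genes were called between the WT groups (9.5%) and 767 between the Hom groups (3.61%). *Apoe* then stood at 0.37 on the log2 scale (SE 0.09, edgeR adjusted p = 0.00489) between the WT groups and 0.34 (SE 0.07, adjusted p = 0.00548) between the Hom groups, where without the covariate the values were 0.40 (SE 0.17) and 0.09 (SE 0.12). The Hom groups also had the widest gap in mean GC slope, -0.143 (permutation p = 0.0617), and its part in the change of the value was not tested. The value between the Hom groups without replicate 19 was 0.31 (adjusted p = 0.00195). For Hom against WT mice of the amyloid cohort the log2 fold change of *Apoe* moved from -0.31 to -0.14 (SE 0.09, adjusted p = 0.829), and its interaction of genotype and cohort from -0.31 to -0.01 (SE 0.12, adjusted p = 0.986).

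*Nr1h3* was also called between the WT groups with the covariate (0.40, SE 0.10, adjusted p = 0.0106), which brought the genes called to 6, while *Lrp1* had an adjusted p of 0.0400 at a log2 fold change of 0.14, under the fold threshold. Between the Hom groups *Nr1h2* moved from -0.28 to 0.03 and *Lrp1* from -0.10 to 0.14, and *Soat1* fell under the threshold (0.24, adjusted p = 0.0517), so that 3 genes were called, *Abca1*, *Plin2* and *Apoe*. With sex as a further covariate *Apoe* was called between the Hom groups (0.34, adjusted p = 0.00318) and *Plin2* was not (0.30, adjusted p = 0.0545). *Soat1* was called between the Hom groups with the GC slope once replicate 19 was left out (0.26, adjusted p = 0.0175). Between amyloid Hom and WT mice *Plin2* stood at -0.31 (SE 0.10, adjusted p = 0.285) with it.

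**Figure D5:**
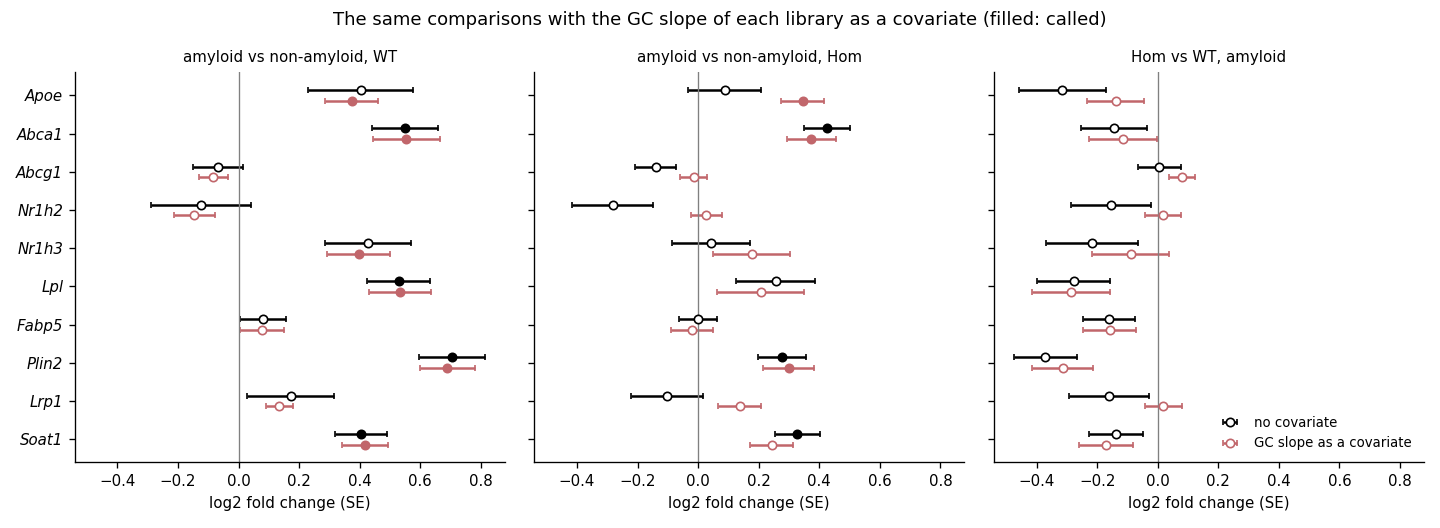
Log2 fold changes with their SE (horizontal axis) of the 10 genes without a covariate (black) and with the GC slope of each library as a covariate (red) in 3 comparisons of 10 against 10 libraries, filled where called. With the covariate *Apoe* is filled in both comparisons of cohorts, at 0.37 and 0.34, and its difference between genotypes moves from -0.31 to -0.14. The slope was computed from these same libraries, with *Apoe* among its genes.

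In the edgeR fits without a covariate, further lipid genes were called between cohorts and none between genotypes. Of 73 tested genes in 6 lists of related genes, 18 were called higher and 0 lower in amyloid WT than in non-amyloid WT mice. Between the Hom groups 10 were called higher and 1 lower, and between genotypes 0 in either cohort. Over all genes tested, 6.21% were called higher between the WT groups and 4.9% between the Hom groups. Between genotypes 0.0753% of all genes were called with amyloid and 0.0329% without, so 0 of 73 lay near that share. The share with amyloid depended on the setting, with 16 genes called here, 251 with sex as a covariate and 300 by DESeq2. Calls of the 73 genes under those other settings are not given. With the GC slope as a covariate the counts were 21 higher between the WT groups and 11 higher between the Hom groups. The shares of all genes, in either direction, were then 9.5% and 3.61%. The median log2 fold change of the 73 genes was 0.15 between the WT groups, 0.05 between the Hom groups and -0.08 for Hom against WT mice with amyloid.

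Among lipoproteins and lipid transfer genes, 6 of 10 were called higher between the WT groups. The neighbours of *Apoe* in its gene cluster, *Apoc2* and *Apoc4*, were at 0.179 ± 0.186 and 0.163 ± 0.152 CPM in amyloid WT against 0.0120 ± 0.0226 and 0.00346 ± 0.00746 CPM in non-amyloid WT mice, so they rested on few counts, and 79.5% of the exonic bases of *Apoc2* are shared with *Gm44805* on the same strand. Their edgeR adjusted p values were 0.000802 and 3.58e-05. *Clu*, the other abundant apolipoprotein of astrocytes, rose by a log2 fold change of 0.44 (SE 0.09, adjusted p = 0.00234), and *Lcat*, which esterifies the cholesterol of lipoproteins, by 0.52 (SE 0.08, adjusted p = 0.000126). In amyloid Hom against WT mice *Clu* stood at -0.26 (SE 0.09, adjusted p = 0.207) and *Apoc2* at -1.64 (SE 0.64, adjusted p = 0.352).

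Of the 14 genes of sterol efflux and transport, 3 were called higher between the WT groups, *Npc2* (0.92, SE 0.10, adjusted p = 3.13e-07), which hands cholesterol out of the lysosome, *Abca9* (0.91, SE 0.13, adjusted p = 2.30e-05) and the lipoprotein receptor *Scarb1* (0.39, SE 0.11, adjusted p = 0.0247). *Npc2* came nearest to a call between genotypes. It was at 98.5 ± 21.9 CPM in amyloid WT and 73.6 ± 8.56 CPM in amyloid Hom mice (log2 fold change -0.42, SE 0.11, adjusted p = 0.0798). *Abca9* stood at -0.33 there (SE 0.12, adjusted p = 0.286).

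Known targets and partners of the liver X receptors gave 2 calls of 10 between the WT groups. These were *Lpcat3*, which remodels phospholipids (0.38, SE 0.05, adjusted p = 6.81e-06), and *Mylip*, which degrades lipoprotein receptors (0.37, SE 0.06, adjusted p = 0.000102). Between the Hom groups they had 0.24 and 0.23, under the fold threshold, with adjusted p values of 0.00693 and 0.0125, and 10.2% of the exonic bases of *Lpcat3* overlap *Emg1* on the opposite strand. Between genotypes in the amyloid cohort they stood at -0.14 and -0.15.

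Of 13 lipoprotein and scavenger receptors, 3 were called higher between the WT groups, among them the scavenger receptors *Msr1* (1.64, SE 0.21, adjusted p = 6.26e-06) and *Olr1* (2.66, SE 0.49, adjusted p = 0.000570). Between the Hom groups 3 of the 13 were called higher, among them *Msr1* at 1.37 and *Lrp2* at 0.91. Mean levels of these genes were low. *Msr1* was at 0.942 CPM in amyloid WT and 0.301 CPM in non-amyloid WT mice. *Olr1* was at 0.159 and 0.0242 CPM in the same groups, so it rested on few counts. *Lrp2* was at 0.832 CPM in amyloid Hom and 0.443 CPM in non-amyloid Hom mice. *Olr1* stood at -1.17 (SE 0.37, adjusted p = 0.176) and *Lrp2* at 0.77 (SE 0.28, adjusted p = 0.284) in amyloid Hom against WT mice.

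Of 17 genes of droplet storage and lipolysis 2 were called higher between the WT groups, the lysosomal lipase *Lipa* (0.43, SE 0.09, adjusted p = 0.00154) and *Soat2* (1.64, SE 0.37, adjusted p = 0.00420), at no more than 0.346 CPM in any amyloid WT library. The only one of the 73 related genes called lower between the Hom groups was in this list, *Dgat2*, which makes triglycerides (-0.34, SE 0.10, adjusted p = 0.0368), and it is named here because of its value. Between genotypes with amyloid *Lipa* and *Soat2* stood at -0.21 and -1.07 (adjusted p = 0.483 and 0.168). Of 9 genes of fatty acid binding and lipase function, *Pnpla7* (0.58, SE 0.07, adjusted p = 9.68e-07) and the glial *Fabp7* (0.45, SE 0.14, adjusted p = 0.0462) were called higher between the WT groups. *Fabp1* (1.54, SE 0.82) and *Pnpla7* (-0.16, SE 0.09) had the lowest p between genotypes, with adjusted p values of 0.562 and 0.578. The median of *Fabp1* was 0.104 CPM in amyloid WT and 0.315 CPM in amyloid Hom mice, so it rested on few counts. Its highest amyloid Hom library was at 3.71 CPM.

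Among marker lists that moved with the comparisons, all 12 microglial markers were called higher between the WT groups (median log2 fold change 1.15) and 10 of 12 between the Hom groups (0.65). Between genotypes with amyloid their median was -0.54 and 0 were called. The 8 astrocyte markers had a median of 0.20 between the WT groups with 2 called, and -0.09 between genotypes with amyloid, where *Gfap* was lowest at -0.95. Summed choroid plexus markers varied widely in every group, from 6.12 to 376 CPM (median 15.3) in amyloid WT, 7.72 to 656 CPM (median 21.2) in amyloid Hom, 6.66 to 185 CPM (median 8.998) in non-amyloid WT and 5.03 to 456 CPM (median 9.12) in non-amyloid Hom mice. The part of these markers in the values of the lipid genes was not tested.

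The deposited coordinates of the 10 genes are on mm10 and all are protein-coding. *Apoe* (ENSMUSG00000002985) lies on chromosome 7 from 19696109 to 19699166 and *Nr1h2* on the same chromosome from 44549616 to 44553951. *Abca1* and *Plin2* lie on chromosome 4, from 53030787 to 53159895 and from 86648386 to 86670060. *Abcg1* lies on chromosome 17 from 31057698 to 31115777, on the chromosome of *Trem2* and 17289 kb from its start. *Lpl* lies on chromosome 8 from 68880491 to 68907448, *Fabp5* on chromosome 3 from 10012548 to 10016607 and *Lrp1* on chromosome 10 from 127538161 to 127621148. *Nr1h3* lies on chromosome 2 from 91184061 to 91202834 and *Soat1* on chromosome 1 from 156424525 to 156474331. Only *Nr1h3* shares exonic bases with another gene, 34 bases or 1.35% with *Gm13783* on the same strand.

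Promoters of the 3 genes called in both comparisons of cohorts are shown because the same calls were made for these genes. RefSeq (GRCm38.p6) gave promoters, 250 bases before to 50 after a start, for 7 of the 10 genes. *Abcg1*, *Lpl* and *Fabp5* had none in the table. The 4 motifs were searched on both strands. These were AGGTCA (read by nuclear receptors), CACGTG (an E-box), GAGGAAGT (a PU.1-like site) and CCCCGCCC (a GC box), present in 16.2%, 7.17%, 3.11% and 17.7% of 32544 promoters of 300 bases. Capitals mark the matches. The promoters are read 5′ to 3′ on the minus strand.

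*Plin2*, chr4:86670010-86670309: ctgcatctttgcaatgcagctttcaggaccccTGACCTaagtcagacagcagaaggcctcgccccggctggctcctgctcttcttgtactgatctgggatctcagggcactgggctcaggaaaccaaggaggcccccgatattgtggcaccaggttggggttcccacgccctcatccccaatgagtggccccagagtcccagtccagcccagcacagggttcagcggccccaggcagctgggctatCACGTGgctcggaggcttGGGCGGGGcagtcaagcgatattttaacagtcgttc

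*Abca1*, chr4:53159846-53160145: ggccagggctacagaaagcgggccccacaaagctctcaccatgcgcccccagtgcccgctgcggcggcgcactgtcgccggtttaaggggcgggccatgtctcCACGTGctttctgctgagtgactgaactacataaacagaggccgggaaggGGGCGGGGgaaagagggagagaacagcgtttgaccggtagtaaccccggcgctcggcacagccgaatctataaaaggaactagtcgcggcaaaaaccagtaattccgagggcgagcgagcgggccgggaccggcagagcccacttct

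*Soat1*, chr1:156474279-156474578: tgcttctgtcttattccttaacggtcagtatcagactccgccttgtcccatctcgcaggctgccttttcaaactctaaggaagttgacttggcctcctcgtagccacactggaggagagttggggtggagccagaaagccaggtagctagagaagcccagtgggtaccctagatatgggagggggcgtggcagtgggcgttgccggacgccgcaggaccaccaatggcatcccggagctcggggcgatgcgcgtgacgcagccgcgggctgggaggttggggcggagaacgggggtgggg

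*Plin2* held 1 AGGTCA match, written TGACCT on the strand shown, 1 CACGTG and 1 CCCCGCCC match, *Abca1* held 1 CACGTG and 1 CCCCGCCC match, and *Soat1* held none of the 4. Of the other promoters *Lrp1* held a CCCCGCCC match, and those of *Apoe*, *Nr1h2* and *Nr1h3* held none of these letters in their windows. A match describes the sequence and was not tested as a site.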

How the data were processed

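Poly-A RNA of the cortex was sequenced from 40 mice. The authors deposited raw counts of reads per gene, whole numbers for 43346 genes with mm10 coordinates and gene lengths, with no normalization. The paper's methods name TopHat, Bowtie and featureCounts within MAP-RSeq, while the submitters' processing notes name STAR 2.5.2b and featureCounts 1.5.1, so the aligner behind the table is uncertain. The strand setting of the counting is not given in the sources used here.

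Groups and sex came from the labels and ages from the paper. Replicate numbers run from 1 to 40 and mark no pairs. Each library is taken as 1 mouse. A gene was tested if 4 or more of the 40 libraries held 10 or more counts of it (21253 genes), with TMM factors over all libraries, edgeR 4.0.16 quasi-likelihood fits of the groups compared and Benjamini-Hochberg adjustment over all genes tested. Calls needed an adjusted p below 0.05 and a change beyond 0.25 log2 units. Sexes were compared with genotype as a covariate, and interactions in fits of 4 group means. CPM are counts scaled to 1000000 per TMM-adjusted library, log2 CPM used a prior count of 2, and SEs were taken as the log2 fold change over the square root of F. The study excluded 1 amyloid Hom female, for a low share of counts in genes and its strand results, without saying which. Replicate 19, an amyloid Hom female, stood apart here on depth and on genes overlapped from the opposite strand and may be that mouse, which was not established, so all 40 libraries entered the fits.

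Depth was 41646271 to 105903846 counts per library. No pair of libraries of a group agreed within sampling noise (180 pairs, lowest chi-square 12.9 per degree of freedom). Correlations used deviations from the 4 group means, and those with marker sums two-sided permutation tests with 100000 resamples. The edgeR test of Hom against WT mice with amyloid was checked on simulated counts with known changes, drawn independently for each gene. The other comparisons and the permutation tests were not checked in this way. Alternatives used DESeq2 1.42.0 and limma 3.58.1 in R 4.3.3. Summaries and plots were made in Python 3.11.15 using pandas 2.3.3, SciPy 1.17.1, NumPy 2.4.6 and matplotlib 3.10.9, on GENCODE vM21 transcripts.

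The 10 genes and all gene lists were chosen with earlier results of these data known. Besides the 10, genes were named by rule, as those called in a related list (at most 4 of lowest p, or the 2 of lowest p where none was called) and the 3 most similar to each of the 10, with *Trem2* and *Thy1* as checks and the lowest or highest member of a marker list. The values of 1 gene that the rule names are not reported here. Alternatives were DESeq2, its size factors, limma-voom, upper-quartile or no further normalization, other filters, no fold threshold, 1 fit of all libraries, sex as a covariate and each library left out. The GC slope as a covariate, and the libraries left out among Hom mice, were chosen after seeing the data.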

Additional observations from a re-analysis of the deposited data

Results flagged for a closer look

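Of 40 combinations of gene and group, 1 held a library that stood apart by Dixon's criterion for 10 samples. *Abca1* in amyloid Hom replicate 3, a female, was at 99.3 CPM, and the next highest of that group was 73.4 CPM, so the gap was 0.846 of the range. Chance alone flags about 1 in 20 groups. *Abca1* remained called between the Hom groups without this library, at a log2 fold change of 0.37.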

How the results depend on the processing

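No paired analysis was possible because the replicate numbers run from 1 to 40 and no 2 groups share one. The paper describes the genotypes as littermates, but the labels used here name no litters, so litter did not enter the tests. Over all settings, 153 of 155 counts of called genes among the 10 stayed within 1.5 times the value given, as did 118 of 155 counts over all genes. Many of the counts among the 10 were 0 before and after. A change from 4 to 6 or from 3 to 2 stayed within this limit, so it hides the lost calls of *Plin2* between the Hom groups. Of 1550 log2 fold changes of single genes, 1488 kept direction and call, with direction not scored where a value vanished when rounded to 2 decimals.

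Between Hom and WT mice with amyloid, 1 of the 10 (*Plin2*) was called by DESeq2 and 1 by a fit of all 40 libraries, and 0 when any library was left out. Over all genes that comparison called 300 by DESeq2, 612 in a fit of all 40 libraries, 251 with sex as a covariate (204 without replicate 19), 217 with sex and GC slope, 8 with GC slope and 8 without the filter, and 6 to 204 with 1 library left out, 6 without amyloid WT replicate 12 and 204 without amyloid WT replicate 13. Without amyloid it called 11 by DESeq2, 11 with GC slope, 13 with sex and GC slope, and 4 to 8 with 1 library left out. The interaction of genotype and cohort called 27 by DESeq2 and 12 with sex as a covariate, none of them among the 10. Between the Hom groups 767 genes were called with GC slope, 775 with sex and GC slope, and 954 to 1665 with 1 library left out. Females and males with amyloid gave 251 by DESeq2, 26 without the filter, 121 with GC slope and 107 without replicate 19, and without amyloid 47 by DESeq2. The causes were not tested.

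Signs changed only on values that were not called. For Hom against WT mice with amyloid, *Nr1h2* stood at 0.0167 and *Lrp1* at 0.0188 with GC slope, at 0.0154 and 0.0177 with sex and GC slope, and *Nr1h2* at 0.0183 with GC slope and without replicate 19. Without amyloid, *Abca1* stood at 0.0266 with GC slope and 0.0243 with sex and GC slope. In the interaction of genotype and cohort with GC slope, *Abcg1* was 0.063, *Nr1h2* 0.1643 and *Lrp1* 0.0114, and without replicate 19 *Abcg1* was 0.0669 and *Nr1h2* 0.1642. Between the Hom groups *Nr1h2* was 0.027 and *Lrp1* 0.137 with GC slope, 0.027 and 0.1377 with sex and GC slope, and 0.0263 and 0.1163 with GC slope and without replicate 19. In the interaction of genotype and sex with GC slope *Abcg1* was 0.0437, *Nr1h2* 0.1493 and *Lrp1* 0.0717. The ranges that follow are with 1 library left out. *Abcg1* ranged from -0.0294 to 0.0364 between genotypes with amyloid. Between genotypes without amyloid, *Apoe* ranged from -0.0628 to 0.0871, *Nr1h2* from -0.0725 to 0.0654, *Abca1* from -0.0512 to 0.023 and *Lpl* from -0.0466 to 0.0482. Between the Hom groups *Nr1h3* ranged from -0.0254 to 0.1007 and *Fabp5* from -0.0258 to 0.0335. *Plin2* between the Hom groups was also lost without the filter (adjusted p = 0.0723) and in 1 fit of all libraries (0.0665).

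With 1 library left out, the WT comparison called 4 to 5 of the 10 and the Hom comparison 2 to 3. Genes under 1 CPM are limited by depth.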
